A study of Mus musculus with 9 samples.

Results

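The genes described here are 10 genes of the YAP pathway, chosen by name from the table of gene counts: the YAP target genes Cyr61, Ctgf, Ankrd1, Amotl2, Ajuba, Lats2, Axl and Crim1, and the genes of the factors themselves, Tead1 and Yap1. All 10 were found among 54134 entries of the table, and all 10 passed the filter on low counts, which left 13810 genes for testing. Cyr61 and Ctgf are the older symbols of Ccn1 and Ccn2, and the table holds them under the older names only. RNA sequencing was done on mouse cells labelled HT22, the name of a hippocampal neuronal line, with the genotype given as WT and the cell type given as HT-4. The 3 groups had 3 libraries each. Control cells had no intervention, Hb cells had oxyhemoglobin, the oxygen-carrying blood pigment set free when red cells lyse, and Hb+NTR1 cells had oxyhemoglobin together with an agent that the sample labels write NTR1 and the series title writes NGR1. No group had the agent alone, and the labels give neither dose nor time. Whether libraries within a group were grown as separate cultures is not stated, and all p-values therefore measure the spread between these samples alone, which may be technical.

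YAP, the product of Yap1, is a transcriptional coactivator at the end of the Hippo pathway. The kinases MST1 and MST2, with the scaffold SAV1, activate the kinases LATS1 and LATS2, which phosphorylate YAP and its paralog TAZ and keep them out of the nucleus. In the nucleus YAP and TAZ have no DNA-binding domain of their own and act through the TEAD factors, which bind a short motif with the core GGAATG. Cell spreading, stiff surroundings and actin tension are known to favour nuclear YAP, and Cyr61, Ctgf and Ankrd1 are the target genes most often read as its output. Several target genes, Lats2, Amotl2 and Ajuba among them, encode proteins that act back on the pathway.

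The 10 genes did not move as a block. With NTR1 added to oxyhemoglobin, Cyr61 and Ctgf rose about equally, 3.17-fold and 3.13-fold over Hb, Lats2 and Crim1 rose less, and Axl, Amotl2, Ajuba, Yap1 and Tead1 fell. Against control, Cyr61 and Ctgf were lower in Hb, by 1.47-fold and 1.57-fold, and higher in Hb+NTR1. Axl and Amotl2, which are known as targets of the same factors, were 2.18-fold and 2.35-fold below control in Hb+NTR1.

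The TEAD motif was looked up in the promoters, since YAP acts through TEAD factors. Known YAP targets are among the genes that rose and among those that fell. The 250 bases before the RefSeq transcript start (build GRCm38.p6) were read for 8 of the 10 genes, and Ctgf and Tead1 are not included. GGAATG, on either strand, was found in 7 of these 8 genes, in 9 places between 60 and 233 bases before the start. Of 32817 upstream windows of the same length in the whole RefSeq table, 12.6% held it. The 8 genes were listed for their known link to YAP, so this is a description of the list. The windows below have 26 bases, all turned so that the match reads CATTCC, shown in capitals, and they are given to compare the bases around the motif in genes that rose and in genes that fell.
Cyr61 (chr3:145650073-145650098, strand -): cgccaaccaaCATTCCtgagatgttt
Crim1 (chr17:78200159-78200184, strand -): catcctacctCATTCCcccccccgcc
Amotl2 (chr9:102717729-102717754, strand +): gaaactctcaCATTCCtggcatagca
Axl (chr7:25788951-25788976, strand +): gtctggtaaaCATTCCtgtagaattt
Yap1 (chr9:8004722-8004747, strand +): cgcgtcgctaCATTCCtgcagactcc
Ankrd1, nearer match (chr19:36119952-36119977, strand +): ggtgaattttCATTCCagacttagtg
Ankrd1, farther match (chr19:36120039-36120064, strand +): gtgagagggtCATTCCtttggcagtg
Ajuba, nearer match (chr14:54577810-54577835, strand -): cccctccgcgCATTCCaactgtaaac
Ajuba, farther match (chr14:54577832-54577857, strand -): ttgatggataCATTCCacagtgcccc
In 5 of the 9 windows the core was followed by T, among them that of Cyr61, which rose, and those of Amotl2, Axl and Yap1, which fell. The windows of Amotl2 and Ankrd1 lie in exons of longer transcripts in GENCODE M21. The other windows lie outside the annotated exons of the 10 genes and of the other CCN genes. Exons of further genes were not checked. Lats2 has 2 RefSeq starts and neither upstream window held the core. The AP-1 motif TGANTCA, which 6.75% of all windows held, and the CArG box of SRF, which 1.47% held, were in 0 of the 8 genes. A match is a run of letters and not evidence of binding.

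The full upstream windows of Cyr61, the gene with the largest rise in Hb+NTR1, and of Axl, the gene with the largest fall against Hb, are shown on the gene's own strand, which is the minus strand for both, with the match in capitals. In Cyr61 the match lies 98 to 103 bases before the start, and in Axl 228 to 233 bases before it.
Cyr61 upstream (chr3:145649986-145650235, minus strand): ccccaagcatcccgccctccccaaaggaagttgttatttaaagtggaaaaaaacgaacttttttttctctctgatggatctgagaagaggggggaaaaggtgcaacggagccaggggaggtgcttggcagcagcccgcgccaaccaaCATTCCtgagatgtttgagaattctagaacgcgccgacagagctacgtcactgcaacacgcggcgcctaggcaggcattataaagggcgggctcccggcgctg
Axl upstream (chr7:25788734-25788983, minus strand): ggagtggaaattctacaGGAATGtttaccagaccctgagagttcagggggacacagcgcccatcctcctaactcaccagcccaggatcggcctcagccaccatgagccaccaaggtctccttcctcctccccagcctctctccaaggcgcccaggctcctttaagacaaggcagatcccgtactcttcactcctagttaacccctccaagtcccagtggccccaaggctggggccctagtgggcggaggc

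**Figure D1:**
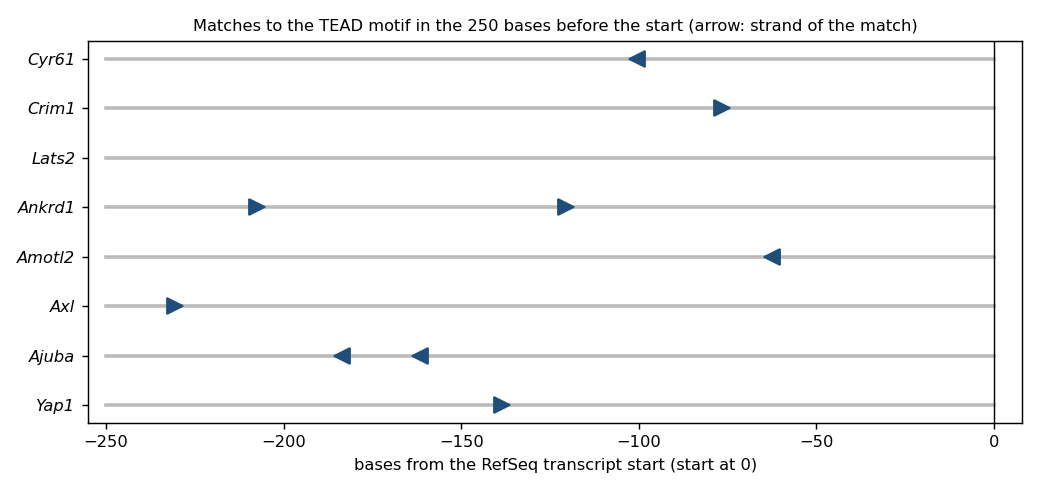
Matches to the TEAD core (arrowheads) in the 250 bases before the RefSeq start of 8 genes, with the distance from the start in bases on the x axis. Right-pointing arrowheads are matches that read GGAATG on the gene's strand and left-pointing ones read CATTCC. 7 of the 8 genes hold at least 1 match, and Lats2 holds none.

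Control libraries held 14369813 to 16893746 counts each, Hb libraries 13415648 to 14728662 and Hb+NTR1 libraries 13945507 to 14280053. Levels are given as normalised CPM, the counts of a library scaled by TMM factors to a common total, and a gene with 0 counts could have had up to 3 by counting error alone, or 0.178 to 0.224 CPM. Log2 fold changes are estimate ± SE, levels are mean ± SD (n = 3), and each adjusted p is a Benjamini-Hochberg value over the 13810 genes, from the quasi-likelihood test of edgeR. Of 14 neuronal markers, 10 averaged under 1 CPM in each group, and Map2 and Snap25 had 0 counts in all 9 libraries. The expressed ones were Dlg4, Ncam1, Tubb3 and Syn1, at 70.2 ± 3.45, 68.3 ± 3.74, 32.6 ± 1.46 and 24.7 ± 1.24 CPM in control. The summed level of the 14 was 194 to 201 CPM for control, 187 to 202 for Hb and 126 to 130.4 for Hb+NTR1. Fibroblast markers were far more abundant: the 10 listed, led by Col1a2, summed to 16770 to 17678 CPM for control, 14116 to 15254 for Hb and 2757 to 2873 for Hb+NTR1, although Fap and Lum averaged under 1 CPM in each group. Of 5 astrocyte markers Aqp4 was at 0 in all libraries, and the sum, nearly all of it Slc1a3, was 199 to 229, 115 to 138 and 8.08 to 9.27 CPM in the 3 groups. Smooth muscle markers summed to 16.0 to 26.9, 9.05 to 11.003 and 5.83 to 6.54 CPM, endothelial markers to at most 3.50 CPM and myeloid markers to at most 1.03 CPM in any library. The fibroblast, astrocyte and smooth muscle sums were thus lower in Hb than in control, without overlap, and lower again in Hb+NTR1. The smooth muscle sum was nearly all Acta2, and Tagln, Myh11 and Cnn1 averaged under 1 CPM in each group. Not all fibroblast markers fell in Hb: Col3a1 went from 1547 ± 82.9 CPM in control to 1771 ± 40.1 in Hb. These 3 sums differed between the groups of all 3 comparisons, and their part in the results was not tested. In bulk RNA fewer cells of a type and less RNA per cell cannot be told apart. Mitochondrially encoded genes took 5.01% ± 0.245 of control counts, 4.38% ± 0.220 of Hb counts and 6.42% ± 0.228 of Hb+NTR1 counts. With these genes removed, edgeR called 501 genes in Hb against control, 8607 in Hb+NTR1 against Hb and 8780 in Hb+NTR1 against control. With all genes kept it called 504, 8607 and 8782. Of the 10 genes 4, 9 and 10 were called in both fits. Any other part of this shift was not tested. Hb replicate 2 stood apart: its chi-square statistic per degree of freedom reached 13.2 and 11.04 with its fellow Hb libraries, where every other pair within a group gave 2.53 to 5.19.

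Oxyhemoglobin alone was compared with control first. Of the 10 genes, 4 fell, Cyr61, Ctgf, Crim1 and Amotl2, 0 rose and 6 did not pass the threshold of 0.05. Among all genes tested 3.65% passed, 1.88% higher and 1.77% lower. The 10 genes were chosen with earlier results of these data known, so this contrast and those below only describe the list. At an unadjusted edgeR p under 0.05, 0 of the 10 were higher and 4 lower, and DESeq2 called 0 higher and 4 lower. In the same 4 genes the libraries of both groups did not overlap, all of them lower in Hb, as in 19.6% of all genes, 9.51% higher and 10.0% lower. A change of at least 2-fold was called in 0 of the 10 and in 0.369% of all genes. The median log2 fold change of the 10 genes was -0.079, against 0.00 over all genes. Without control replicate 1, 2 or 3, or with scaling by library totals, 2 of the 4 calls remained, those of Cyr61 and Ctgf. Without Hb replicate 2 all 4 remained. The fibroblast, astrocyte and smooth muscle sums were lower in Hb too, the last 2 of them nearly all Slc1a3 and Acta2. Col3a1 among the fibroblast markers was higher. The part of these sums was not tested.

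Adding NTR1 to oxyhemoglobin was compared with oxyhemoglobin alone. Of the 10 genes 9 passed, 4 higher and 5 lower, and the same 9 had no overlap between groups. This stands beside 62.3% of all genes that passed, 30.7% higher and 31.6% lower, and 64.7% without overlap, 32.4% higher and 32.3% lower, so most genes of any kind were called here. The calls of at least 2-fold were Cyr61, Ctgf and Axl, 3 of 10 genes against 16.0% of all genes. The median absolute log2 fold change was 0.60 in the 10 genes and 0.42 over all genes, and the signed medians were -0.25 and -0.011. Against control, 10 of 10 passed, 4 higher and 6 lower, against 63.6% of all genes, 31.4% higher and 32.2% lower. All but Ankrd1 had no overlap between these groups, 4 of them higher and 5 lower, as had 69.9% of all genes, 34.8% higher and 35.1% lower. Of the 10 genes, Cyr61, Amotl2 and Axl changed at least 2-fold against control, and 16.9% of all genes did. The 3 comparisons share libraries, since Hb stands in 2 of them and so do control and Hb+NTR1, and their values are therefore given side by side and not as separate support.

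**Figure D2:**
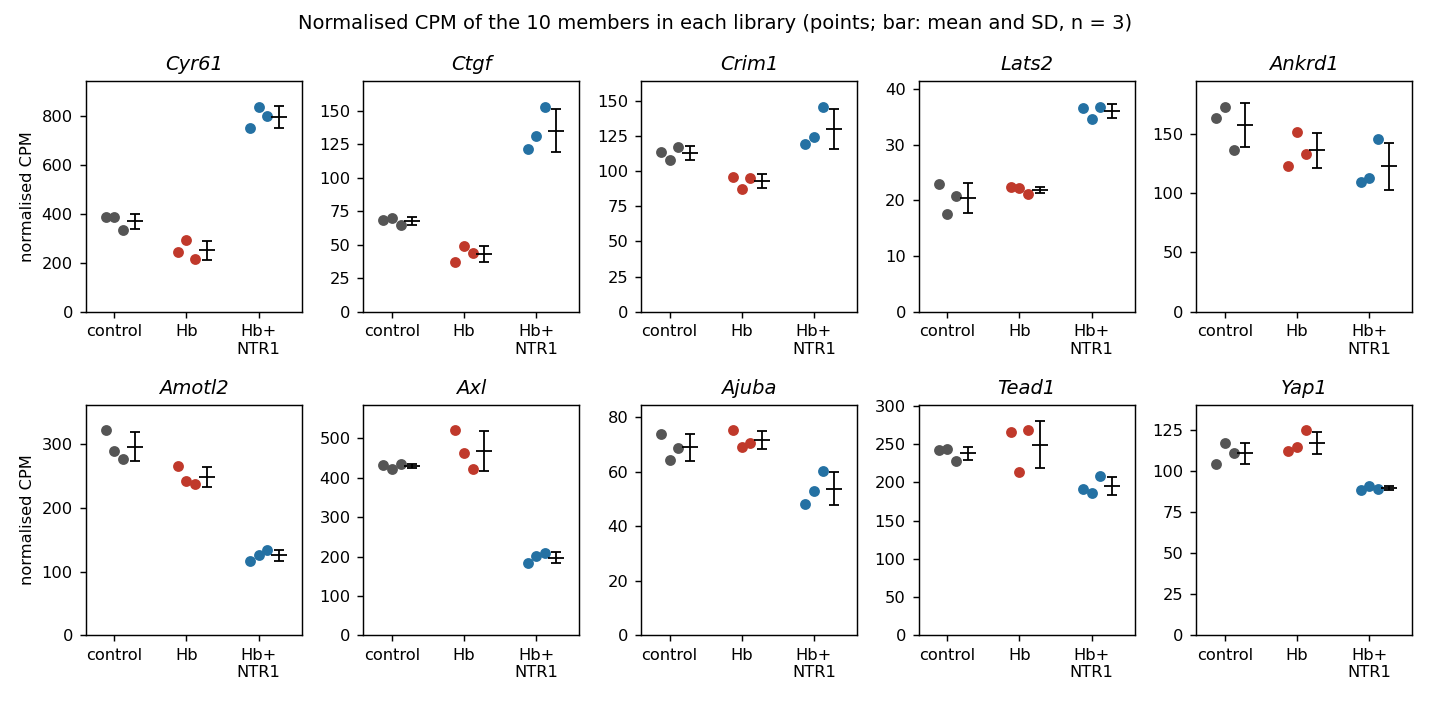
Normalised CPM (y axis, from 0) of the 10 genes in each of the 9 libraries. Points are libraries, and bars give the mean and SD of 3 libraries. Cyr61 and Ctgf are lowest in Hb and highest in Hb+NTR1, whereas Amotl2, Axl, Ajuba, Tead1 and Yap1 are lowest in Hb+NTR1.

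Cyr61 and Ctgf encode CCN1 and CCN2, secreted matricellular proteins that bind integrins and heparan sulfate at the cell surface. Cyr61 (ENSMUSG00000028195.4, chromosome 3, 145646976 to 145649981, minus strand, GRCm38) had 388, 386 and 332 CPM in control, 243, 293 and 217 in Hb, and 749, 838 and 801 in Hb+NTR1. Each Hb library lay under each control library, and each Hb+NTR1 library lay above all others. Its log2 fold change was -0.55 ± 0.0867 in Hb against control (edgeR adjusted p = 0.000317), 1.66 ± 0.0880 in Hb+NTR1 against Hb (edgeR adjusted p = 1.83e-13) and 1.11 ± 0.0864 against control (edgeR adjusted p = 1.46e-10). Per kilobase of annotated exon Cyr61 was the most abundant of the 10 in every group, at 183 ± 15.7 CPM per kb for control, 124 ± 19.3 for Hb and 394 ± 22.1 for Hb+NTR1.

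Ctgf (ENSMUSG00000019997.11, chromosome 10, 24595442 to 24598683, plus strand) had 68.5, 70.1 and 64.7 CPM in control, 37.1, 49.1 and 43.6 in Hb, and 121, 131 and 153 in Hb+NTR1. The groups stood in the same order as for Cyr61, with no overlap. The log2 fold change was -0.65 ± 0.0940 in Hb against control (edgeR adjusted p = 9.72e-05), 1.64 ± 0.0927 against Hb (edgeR adjusted p = 2.57e-13) and 1.00 ± 0.0891 against control in Hb+NTR1 (edgeR adjusted p = 9.73e-10). Among the 10 genes by level per kilobase, Ctgf had rank 5 for control, 8 for Hb and 2 for Hb+NTR1, where its libraries overlapped those of Ankrd1. The annotated exons of Gm15270, on the opposite strand, cover 23.2% of its exon bases, and Gm15270 had 0 to 3 counts per library. The strand setting of the counting is not known, so reads of this pair cannot be told apart.

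The ratio of Ctgf to Cyr61 counts, which needs no scaling between libraries, overlapped between all groups. Its log2 was -2.44 ± 0.0728 for control, -2.54 ± 0.203 for Hb and -2.56 ± 0.154 for Hb+NTR1 (SD, n = 3). The difference was -0.095 ± 0.125 in Hb against control, -0.027 ± 0.147 in Hb+NTR1 against Hb and -0.12 ± 0.0981 against control (SE). Exact two-sided permutation tests gave p = 0.50, 0.80 and 0.30, or 0.75, 0.80 and 0.54 after Benjamini-Hochberg adjustment over 9 ratio comparisons. With 3 against 3 libraries p cannot go under 0.10, so no difference could have passed. Of the 4 other CCN genes 3 were tested. Wisp1, which encodes CCN4, went from 170.0 ± 5.70 CPM in control and 168 ± 10.0 in Hb to 61.4 ± 2.11 in Hb+NTR1, a log2 fold change of -1.45 ± 0.0669 against Hb (edgeR adjusted p = 6.97e-15). Wisp2, which encodes CCN5 and is named here after its values were seen, fell from 2.72 ± 0.236 to 0.808 ± 0.143 CPM in Hb (edgeR log2 fold change -1.74 ± 0.329, adjusted p = 0.00209), the direction of Cyr61 and Ctgf there. In Hb+NTR1 it had 0.463 ± 0.0453 CPM, lower than control (edgeR log2 fold change -2.53 ± 0.360, adjusted p = 1.57e-06), where Cyr61 and Ctgf were higher. Nov was below the filter, and Wisp3 passed in no comparison.

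**Figure D3:**
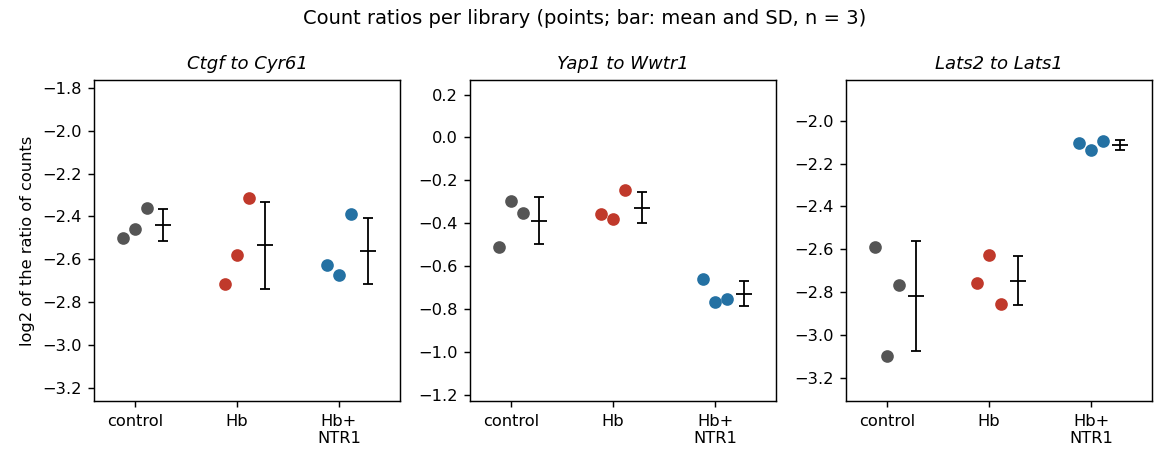
Log2 of the ratio of counts in each library for Ctgf to Cyr61, Yap1 to Wwtr1 and Lats2 to Lats1. Points are libraries, bars give the mean and SD of 3 libraries, and each y axis spans 1.5 log2 units. The Ctgf to Cyr61 ratio overlaps between all groups, while the other ratios in Hb+NTR1 lie outside the range of the other 6 libraries.

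Ankrd1 encodes an ankyrin repeat protein of the nucleus and the sarcomere and is often read together with Cyr61 and Ctgf as YAP output. Ankrd1 (ENSMUSG00000024803.9, chromosome 19, 36111961 to 36120099, minus strand) had 163, 173 and 137 CPM in control, 123, 152 and 133 in Hb, and 109.9, 113 and 146 in Hb+NTR1. The groups overlapped in all comparisons. It was the single gene of the 10 that did not pass in Hb+NTR1 against Hb, at a log2 fold change of -0.15 ± 0.109 (edgeR adjusted p = 0.254). In Hb against control the value was -0.21 ± 0.108 (edgeR adjusted p = 0.354), and against control it was lower in Hb+NTR1, at -0.36 ± 0.109 (edgeR adjusted p = 0.00847). The last call missed with the 6 libraries alone (edgeR adjusted p = 0.0911). Without Hb+NTR1 replicate 3, its highest library, the log2 fold change against Hb was -0.29 (edgeR adjusted p = 0.0157). Its values were thus below 0 in both comparisons of Hb+NTR1, where those of Cyr61 and Ctgf were above 0.

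Axl encodes a receptor tyrosine kinase of the TAM family, bound by GAS6. Axl (ENSMUSG00000002602.16, chromosome 7, 25757273 to 25788705, minus strand) had 433, 423 and 434 CPM in control, 520.4, 462 and 421 in Hb, and 183, 201 and 209 in Hb+NTR1. Control and Hb overlapped, at a log2 fold change of 0.12 ± 0.0709 (edgeR adjusted p = 0.418), and every Hb+NTR1 library lay far under the other 6. The fall was -1.25 ± 0.0727 against Hb (edgeR adjusted p = 4.78e-13) and -1.12 ± 0.0725 against control (edgeR adjusted p = 2.71e-12). Of 4 other TAM genes, the receptor gene Tyro3 also fell, from 60.6 ± 5.46 CPM in Hb to 43.2 ± 4.84 in Hb+NTR1, at a log2 fold change of -0.49 ± 0.0879 (edgeR adjusted p = 3.96e-05). The ligand gene Pros1 did not pass, and Mertk and Gas6 were below the filter, with Gas6 at 0 to 3 counts per library.

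Crim1 encodes a transmembrane protein with cysteine-rich repeats that binds bone morphogenetic proteins. Crim1 (ENSMUSG00000024074.8, chromosome 17, 78200248 to 78376592, plus strand) had 114, 108 and 117 CPM in control, 96.1, 87.0 and 95.1 in Hb, and 119.5, 124 and 146 in Hb+NTR1. Its groups stood in the order of those of Cyr61, over a narrower range. Crim1 changed by -0.29 ± 0.0749 on the log2 scale in Hb against control (edgeR adjusted p = 0.0303) and 0.49 ± 0.0747 in Hb+NTR1 against Hb (edgeR adjusted p = 4.84e-06). Against control it was 0.20 ± 0.0739 (edgeR adjusted p = 0.0207), a call that missed without control replicate 2 or without Hb+NTR1 replicate 3 (edgeR adjusted p = 0.101 and 0.223). The call in Hb against control missed without control replicate 1, 2 or 3 (edgeR adjusted p = 0.105, 0.0575 and 0.164). Fez2, a gene on the opposite strand with 683 to 914 counts per library, covers 2.05% of the exon bases of Crim1.

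Among the genes that act back on the pathway, Lats2 rose and Amotl2 and Ajuba fell. Lats2, the gene of a kinase that phosphorylates YAP and TAZ, lies on chromosome 14 (ENSMUSG00000021959.16, 57689662 to 57758388, minus strand). It had 23.0, 17.5 and 20.8 CPM in control, 22.3, 22.1 and 21.2 in Hb, and 36.6, 34.6 and 36.8 in Hb+NTR1, and was the least abundant of the 10 per kilobase in every group. The Hb+NTR1 libraries lay above all others. In Hb+NTR1 its log2 fold change was 0.72 ± 0.0998 against Hb (edgeR adjusted p = 1.19e-06) and 0.82 ± 0.0997 against control (edgeR adjusted p = 1.58e-07), while Hb against control gave 0.099 ± 0.104 (edgeR adjusted p = 0.698). Gm49361 shares 42.4% of the exon bases of Lats2 on the same strand and had 0 counts in all libraries. With the handling of reads shared by both unknown here, the level of Lats2 is uncertain.

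The paralog Lats1 had 147 ± 9.04 CPM in Hb and 156 ± 2.95 in Hb+NTR1, at a log2 fold change of 0.083 ± 0.0637 (edgeR adjusted p = 0.266). The log2 ratio of Lats2 to Lats1 counts was -2.82 ± 0.258 for control, -2.75 ± 0.115 for Hb and -2.11 ± 0.0218 for Hb+NTR1 (SD, n = 3). The ratio was 1.55-fold higher in Hb+NTR1 than in Hb, with no overlap. The exact two-sided permutation test gave p = 0.10, the smallest that 3 against 3 libraries allow, or 0.225 after Benjamini-Hochberg adjustment over the 9 ratio comparisons.

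Amotl2 encodes an angiomotin-like scaffold of cell junctions that binds YAP. Amotl2 (ENSMUSG00000032531.15, chromosome 9, 102716672 to 102733418, plus strand) had 322, 289 and 277 CPM in control, 266, 243 and 237 in Hb, and 117, 127 and 134 in Hb+NTR1. The 3 groups did not overlap and stood in the order control, Hb, Hb+NTR1. The log2 fold change was -0.98 ± 0.0711 against Hb (edgeR adjusted p = 2.51e-11) and -1.23 ± 0.0712 against control (edgeR adjusted p = 3.45e-13). The step from control to Hb was small, at -0.25 ± 0.0693 (edgeR adjusted p = 0.0395), and missed in 8 of the 17 other settings, with an adjusted p of up to 0.253 without control replicate 1. Amot, the gene of the founding family member, also fell against Hb, from 127 ± 13.3 to 96.2 ± 3.87 CPM (edgeR log2 fold change -0.41 ± 0.0735, adjusted p = 4.19e-05), while Amotl1 did not pass there.

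Ajuba encodes a LIM-domain protein that binds LATS kinases and restrains them. Ajuba (ENSMUSG00000022178.11, chromosome 14, 54567472 to 54577558, minus strand) had 74.1, 64.2 and 68.7 CPM in control, 75.2, 69.2 and 70.7 in Hb, and 48.3, 52.8 and 60.4 in Hb+NTR1. Control and Hb overlapped, and the Hb+NTR1 libraries lay under both. Ajuba had a log2 fold change of -0.41 ± 0.0831 against Hb (edgeR adjusted p = 0.000148) and -0.36 ± 0.0830 against control (edgeR adjusted p = 0.000633). The related genes of the same LIM family moved the other way. Limd1 went from 80.7 ± 1.10 CPM in Hb to 126 ± 3.88 in Hb+NTR1 (edgeR log2 fold change 0.65 ± 0.0636, adjusted p = 5.18e-09). Wtip, named here after its values were seen, went from 19.3 ± 1.95 to 25.6 ± 2.08 CPM (edgeR log2 fold change 0.40 ± 0.107, adjusted p = 0.00224).

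The genes of the factors fell by less. Yap1 (ENSMUSG00000053110.13, chromosome 9, 7931999 to 8004596, minus strand) had 104, 117 and 111 CPM in control, 112, 115 and 125 in Hb, and 88.4, 90.9 and 89.1 in Hb+NTR1. The Hb+NTR1 libraries lay close together and under all others. The log2 fold change was -0.39 ± 0.0673 against Hb (edgeR adjusted p = 2.42e-05) and -0.31 ± 0.0672 against control (edgeR adjusted p = 0.000377), and 0.083 ± 0.0665 in Hb against control (edgeR adjusted p = 0.584). Wwtr1, the gene of TAZ, had 145 ± 3.44, 147 ± 3.13 and 148 ± 7.64 CPM in control, Hb and Hb+NTR1, and passed in no comparison. The log2 ratio of Yap1 to Wwtr1 counts averaged -0.39 ± 0.109 over control, -0.33 ± 0.0713 over Hb and -0.73 ± 0.0577 over Hb+NTR1 (SD). The ratio was 1.32-fold lower in Hb+NTR1 than in Hb, with no overlap (exact two-sided permutation p = 0.10, the smallest possible, and 0.225 after adjustment). The exons of Gm20416, on the opposite strand and at 0 to 3 counts per library, cover 1.25% of those of Yap1.

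Tead1 (ENSMUSG00000055320.17, chromosome 7, 112679318 to 112906807, plus strand) had 242, 244 and 228 CPM in control, 266, 213 and 268 in Hb, and 191, 186 and 208 in Hb+NTR1. The low Hb value belongs to replicate 2, the library that stood apart, and it still lay above the Hb+NTR1 libraries. The log2 fold change was -0.35 ± 0.0758 against Hb (edgeR adjusted p = 0.000309) and -0.29 ± 0.0758 against control (edgeR adjusted p = 0.00209), with 0.065 ± 0.0754 in Hb against control (edgeR adjusted p = 0.729). The TEAD genes changed unequally. Tead2 went from 103 ± 3.46 CPM in Hb to 28.7 ± 2.45 in Hb+NTR1, a 3.59-fold fall (edgeR log2 fold change -1.85 ± 0.0781, adjusted p = 1.43e-15). Tead3 went from 20.3 ± 3.23 to 13.9 ± 0.300 CPM (edgeR adjusted p = 0.000418), and Tead4, at 35.9 ± 0.624 and 31.3 ± 3.28 CPM, did not pass (edgeR adjusted p = 0.0657).

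**Figure D4:**
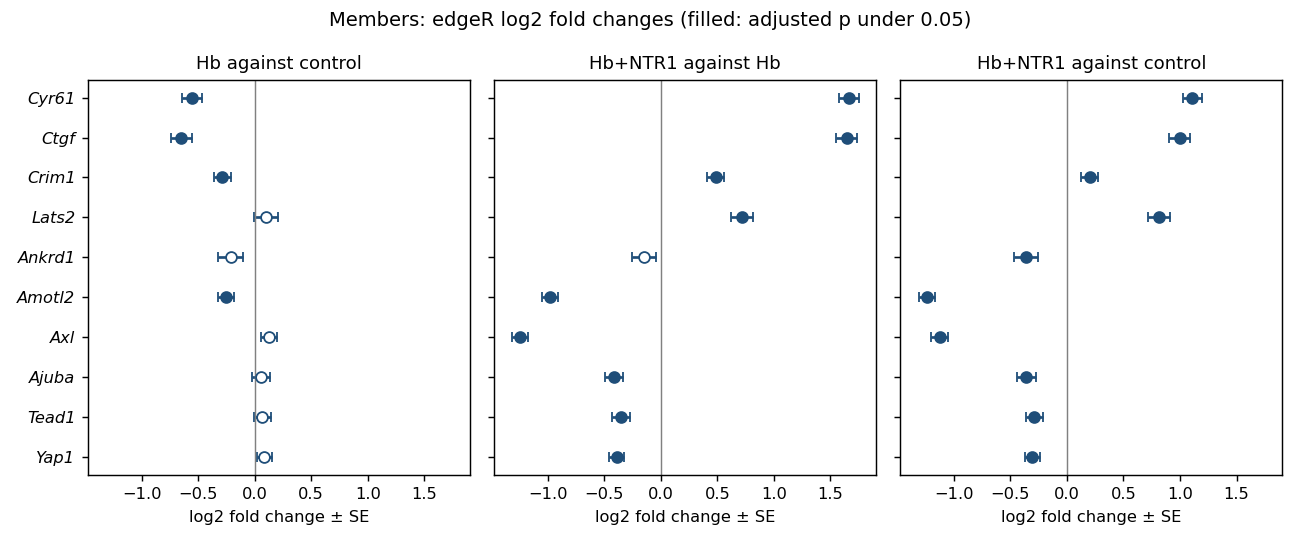
Log2 fold change (x axis, bars ± SE) of the 10 genes in the 3 comparisons. Filled points have an edgeR adjusted p under 0.05. In Hb+NTR1 against Hb, 4 genes lie to the right of 0 and pass, 5 lie to the left and pass, and Ankrd1 does not pass.

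By level per kilobase of annotated exon, the order of the 10 genes in control was Cyr61, Axl, Ankrd1, Amotl2, Ctgf, Ajuba, Crim1, Tead1, Yap1 and Lats2. Ankrd1 and Amotl2 overlapped there, as did Ajuba and Crim1. In Hb the first 4 were the same, followed by Ajuba, Tead1, Crim1, Ctgf and Yap1, each overlapping the next, and then Lats2. In Hb+NTR1 the order was Cyr61, Ctgf, Ankrd1, Axl, Crim1, Amotl2, Ajuba, Tead1, Yap1 and Lats2. Overlap there joined Ctgf, Ankrd1 and Axl in a row, Crim1 with Amotl2, and Ajuba with Tead1. Axl thus went from 85.4 ± 1.22 to 39.2 ± 2.67 CPM per kb and Ctgf from 23.7 ± 0.984 to 47.3 ± 5.67 CPM per kb. Exon lengths are unions over all annotated transcripts, so the level of a gene with long alternative exons is understated.

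Among 25 other genes listed as YAP or TAZ targets, 20 were tested. In Hb+NTR1 against Hb, 6 were higher, 8 lower and 6 did not pass, at a median log2 fold change of -0.13. These 14 are 70.0% of the list, where 62.3% of all genes passed, 30.7% higher and 31.6% lower, so calls in both directions are the rule among all genes too. Ccdc80, the gene of a secreted matrix protein, went from 58.3 ± 2.41 to 12.8 ± 0.658 CPM (edgeR log2 fold change -2.19 ± 0.0865, adjusted p = 4.08e-16). F3, the gene of tissue factor, went from 296 ± 15.5 to 92.2 ± 0.989 CPM (edgeR log2 fold change -1.68 ± 0.0668, adjusted p = 4.32e-16). Rbms3, the gene of an RNA-binding protein, went from 17.8 ± 1.95 to 5.14 ± 0.271 CPM, a 3.46-fold fall. Tgfb1, the gene of the cytokine TGF-beta 1, rose 2.22-fold, from 9.60 ± 0.798 to 21.3 ± 2.14 CPM. In Hb against control Ccdc80 alone passed, lower, by 1.33-fold (edgeR adjusted p = 0.00111), which is 5.0% of the list against 3.65% of all genes. DESeq2 called 2 there, as did edgeR without the filter or without Hb replicate 1, 2 or 3, and 8 had an unadjusted edgeR p under 0.05. In Hb+NTR1 against control 6 were higher and 11 lower, 85.0% of the list against 63.6% of all genes, 31.4% higher and 32.2% lower. The authors' deposited table of Hb+NTR1 against control, in which every gene has an absolute log2 fold change over 2, holds 0 of the 10 genes. It lists Ccdc80 at -2.61, Wisp2 at -2.55 and Areg, which had 0 to 4 counts per control library, at 3.64, in the authors' deposited log2 values.

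Of 30 other Hippo pathway genes 26 were tested. In Hb against control 0 of 26 passed by edgeR and 0 by DESeq2, and 4 had an unadjusted edgeR p under 0.05. With 3.65% of all genes called in that comparison, a count of 0 in a list of this size is near the background. In Hb+NTR1 against Hb 12 were higher, 5 lower and 9 did not pass, at a median log2 fold change of 0.094, and 65.4% of the 26 passed where 62.3% of all genes did. The upstream kinase genes Stk4 and Stk3, which encode MST1 and MST2, both rose, Stk4 from 66.9 ± 1.46 to 121 ± 3.19 CPM (edgeR log2 fold change 0.85 ± 0.0660, adjusted p = 8.52e-11). Their scaffold gene Sav1 fell from 49.6 ± 3.38 to 32.3 ± 4.06 CPM (edgeR log2 fold change -0.62 ± 0.0918, adjusted p = 2.96e-06). Nf2, the gene of the tumour suppressor merlin, rose from 163 ± 4.24 to 206 ± 9.90 CPM (edgeR adjusted p = 5.85e-05). Vgll4, whose product competes with YAP for TEAD factors, rose from 41.5 ± 2.90 to 65.6 ± 4.54 CPM (edgeR log2 fold change 0.66 ± 0.0827, adjusted p = 2.39e-07). Of the 5 that fell, Tead2 changed most.

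**Figure D5:**
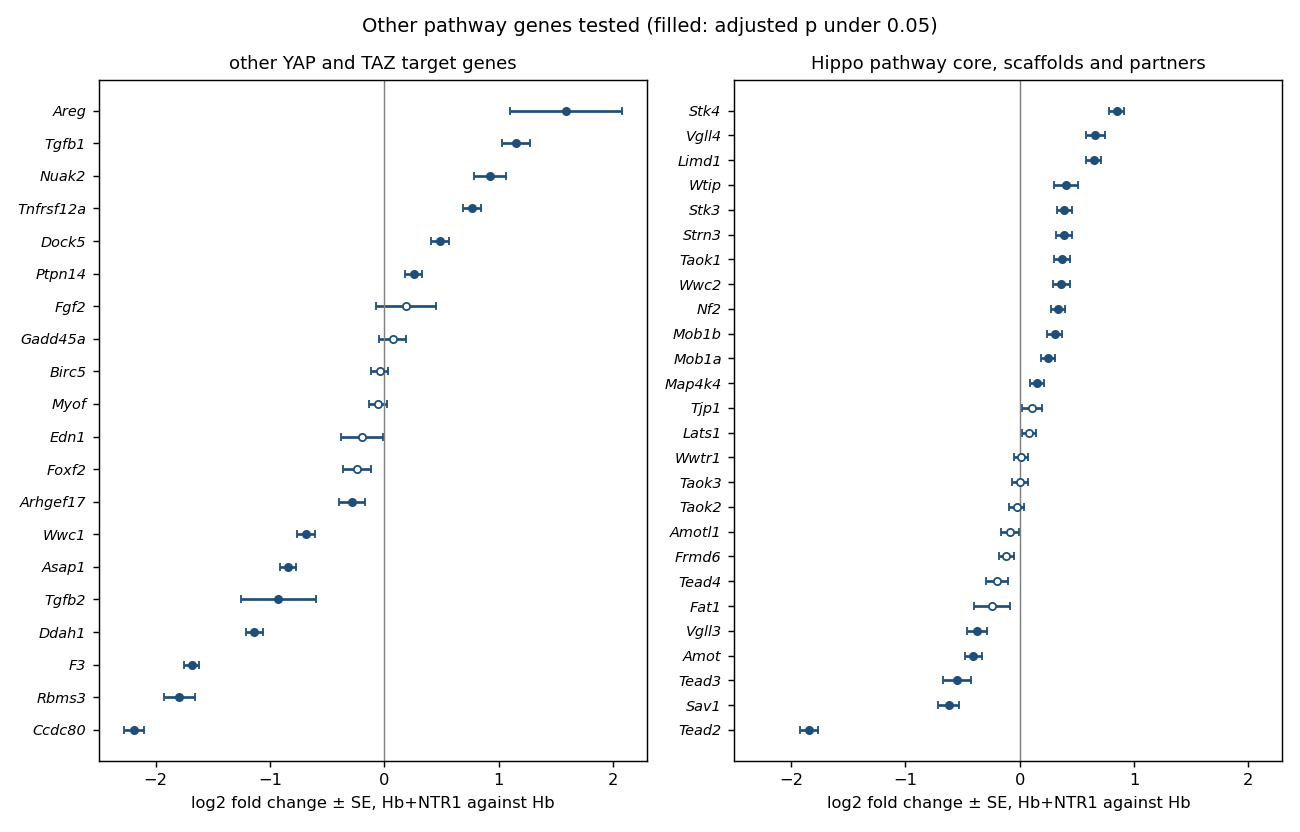
Log2 fold change in Hb+NTR1 against Hb (x axis, bars ± SE) of 20 other YAP and TAZ target genes and 26 other Hippo pathway genes. Filled points have an edgeR adjusted p under 0.05. Targets lie on both sides of 0, from Ccdc80 at -2.19 to Areg at 1.59, and Tead2 at -1.85 stands apart from the other Hippo pathway genes.

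Genes outside the list were ranked by how closely their normalised log2 CPM followed that of Cyr61, Ctgf or Ankrd1 over the 9 libraries. The groups of Cyr61 and Ctgf did not overlap, so that r mostly describes the group levels there. Those of Ankrd1 overlapped, and its r also follows the spread within groups. Among the nearest to Cyr61 were Smad7 (Pearson r = 0.989) and Id1 (r = 0.987). Smad7 had 26.6 ± 0.845, 20.2 ± 0.920 and 46.1 ± 5.01 CPM in control, Hb and Hb+NTR1. Among the nearest to Ctgf were Alcam and Aida, at r = 0.991 each. Ctgf and Cyr61 themselves gave r = 0.982. Ankrd1 gave r = -0.33 with Cyr61 and -0.24 with Ctgf, and its nearest genes were Arf4 (r = 0.954), Zrsr2 (r = 0.951) and Spg20 (r = 0.930), which like Ankrd1 had their highest mean in control.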

How the data were processed

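Poly(A) RNA of 9 libraries was sequenced. The submitters' processing notes name the GRCm38 genome, HTSeq 0.10.0, HISAT2 2.1.0 and bcl2fastq 2.19.1.403, without roles. The deposited counts are raw and listed by gene symbol. The annotation release, the strand setting, the handling of shared reads and the authors' test were not given in the sources used here. A second table, deposited by the authors for Hb+NTR1 against control, holds the same counts with log2 fold changes and p-values for 691 genes, per the file headers. Columns beginning with N were taken as Hb+NTR1, since only control and Hb+NTR1 labels name that table, whose columns are N and C.

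Of 54232 entries, 98 duplicates were removed. In R 4.3.3, edgeR 4.0.16 was run with filterByExpr (minimum count 10), TMM and a robust quasi-likelihood fit of all 9 libraries by group, with two-sided tests at 0.05. The SE is the absolute log2 fold change over the square root of F. The fit was tested on simulated data. Alternatives were DESeq2 1.42.0, other scalings and filters, the 6 libraries of a comparison alone, removal of mitochondrially encoded genes, a replicate block and each library left out. Named genes were all 10, per other list and comparison up to 4 called genes of largest change with at least 5 CPM, fixed pathway genes, and the 3 genes most correlated with Cyr61, Ctgf and Ankrd1, of which some are not reported here. Other list genes, such as Stk3, Amotl1, Wtip and Wisp2, were named after their values were seen. Positions are from GENCODE M21 (GRCm38) and promoters from RefSeq. The members and lists were chosen with earlier results of these data known.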

Additional observations from a re-analysis of the deposited data

How the results depend on the processing

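Over 17 other settings, 494 of the 510 member values kept their side of the threshold, 15 lost and 1 gained a call, and 0 called values changed sign. In Hb against control, genes called ran from 285 to 1125 with 1 library left out, against 504. Leaving out control replicate 1, 2 or 3 gave 315, 285 or 286, and leaving out Hb replicate 2 gave 1125. Members called there ran from 2 to 4, and were 2 with library totals alone. For the other YAP and TAZ targets 2 were called there without a filter, by DESeq2 and with the replicate block, and 1 to 2 with a library left out, while 0 of the Hippo list passed in each of these fits. In Hb+NTR1 against Hb, leaving out a library gave 7909 to 8659 genes, 9 to 10 members, 12 to 15 targets and 16 to 20 Hippo genes. Against control it gave 8006 to 9358 genes, 9 to 10 members, 17 to 18 targets and 16 to 21 Hippo genes. The log2 ratio differences ran from -0.21 to -0.0060, -0.12 to 0.084 and -0.21 to -0.065 for Ctgf to Cyr61, in the order of the comparisons above. They ran from -0.00086 to 0.10, -0.43 to -0.36 and -0.40 to -0.30 for Yap1 to Wwtr1, and from -0.068 to 0.19, 0.58 to 0.69 and 0.57 to 0.82 for Lats2 to Lats1. Whether same-numbered libraries were handled together is not stated. Their deviations from group means correlated at -0.049 to 0.095, which cannot exclude a pairing. With the replicate block 645, 8706 and 8898 genes were called, against 504, 8607 and 8782 without it, in the same order. Members called were 4, 9 and 10 in both fits. Not every library correlated best with its own number. The cause of these shifts was not tested. Depth limits Wisp2, Wisp3, Areg, Nov, Mertk and Gas6, all under 5 CPM.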
